A study of Homo sapiens with 2 samples.

Results

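The ERBB family of receptor tyrosine kinases and the EGF family ligands that bind them were followed in enzalutamide-resistant prostate cancer cells with and without a hairpin against NRP2. The family was taken as 10 named genes of the 26475 symbols listed, the receptors EGFR, ERBB2, ERBB3 and ERBB4 and the ligands EGF, TGFA, AREG, EREG, HBEGF and BTC. All 10 were listed in both tables. RNA sequencing covered 2 libraries of C4-2B ENZR, an established human prostate cancer cell line resistant to enzalutamide, an androgen receptor antagonist. Both cell populations were grown with 10% fetal bovine serum and 20 µM enzalutamide, and both had been infected with lentivirus and selected with an antibiotic. The control population, labelled WT, expressed a non-targeting hairpin RNA, and the knockdown population expressed 1 hairpin directed at the NRP2 coding region. There was 1 library per group, so differences describe these 2 libraries without a p-value, and a change of cell make-up and a change of RNA per cell cannot be told apart in bulk RNA.

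ERBB receptors sit in the cell membrane and signal as dimers, which phosphorylate each other's tails and pass the signal to the RAS-ERK and PI3K-AKT pathways. ERBB2 has no known ligand of its own and serves as a partner, ERBB3 has a weak kinase and binds PI3K strongly, and EGFR and ERBB4 bind ligand and have active kinases. EGF family ligands are made as membrane precursors and cut free by ADAM proteases. EGF, TGFA and AREG bind EGFR, whereas HBEGF, EREG and BTC bind EGFR and ERBB4. In normal prostate epithelium EGFR is known mainly from basal cells.

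The reference sequence before the start of EGFR, TGFA and HBEGF is shown because these members represent a receptor and a ligand that were higher in the knockdown library and a ligand that was level. Sequences are the 250 bases before the most 5′ start of each gene in a RefSeq promoter table of build GRCh38.p14, read 5′ to 3′ on the strand of the gene. Capitals mark the GC box, letters GGGCGG on either strand, with overlapping matches counted separately. EGFR is at chr7:55018767-55019016 on the plus strand, TGFA at chr2:70553827-70554076 on the minus strand and HBEGF at chr5:140346604-140346853 on the minus strand.
EGFR: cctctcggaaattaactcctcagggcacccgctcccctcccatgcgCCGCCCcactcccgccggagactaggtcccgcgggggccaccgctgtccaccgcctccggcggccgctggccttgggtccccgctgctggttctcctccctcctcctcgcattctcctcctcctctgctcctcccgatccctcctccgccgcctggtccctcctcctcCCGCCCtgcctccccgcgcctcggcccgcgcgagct
TGFA: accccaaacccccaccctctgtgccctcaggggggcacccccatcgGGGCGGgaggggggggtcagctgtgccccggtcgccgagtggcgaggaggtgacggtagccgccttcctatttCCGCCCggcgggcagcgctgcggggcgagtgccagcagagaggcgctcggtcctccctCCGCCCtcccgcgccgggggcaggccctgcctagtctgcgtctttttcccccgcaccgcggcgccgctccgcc
HBEGF: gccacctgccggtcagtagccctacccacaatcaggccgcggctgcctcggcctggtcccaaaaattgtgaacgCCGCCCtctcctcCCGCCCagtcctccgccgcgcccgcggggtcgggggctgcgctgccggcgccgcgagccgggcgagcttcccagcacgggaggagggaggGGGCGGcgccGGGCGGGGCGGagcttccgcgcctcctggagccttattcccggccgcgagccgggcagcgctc

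The 3 windows held 2, 3 and 5 GC boxes, and 42.6% of the 35116 promoters of the same length held at least 1. Their GC content was 73.6%, 75.6% and 76.4%, where the median promoter had 58%. None of the 3 held the core of the hypoxia response element (ACGTG, in 18.5% of promoters), the TATA box (TATAAA, in 10.7%) or the androgen receptor half-site (AGAACA, in 12.4%), each searched on both strands. A match or its absence describes these letters alone. The table lists a second start for EGFR and for TGFA, and values per gene do not tell which start the reads came from. The table held 9 of the 10 members, all but ERBB3. Of the windows not shown, ERBB4 and AREG held 1 GC box each, and ERBB2, EGF, EREG and BTC held 0. AREG and EREG each held a TATA box, and ERBB4 held an androgen receptor half-site. GC content in these windows ran from 48.8% (EGF) to 65.6% (ERBB2).

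Reads assigned to genes numbered 21052178 for control and 22992304 for knockdown cells, as recovered from the deposited values. Levels are read counts that the authors scaled by library size (CPM), and 1 read was worth 0.0487 CPM in control and 0.0472 CPM in knockdown cells. NRP2, the targeted gene and a co-receptor for semaphorins and VEGF, was at 0.974 CPM (20 reads) in control and 0.330 CPM (7 reads) in knockdown cells, 2.95-fold lower (counting interval 1.198 to 8.26). The check of the hairpin therefore rests on few reads, and NRP2 did not reach the level set for a comparison. All 5 epithelial and all 5 prostate markers were above 1 CPM in both libraries. The markers of other cells were low or mixed. Of 5 leukocyte markers 1 reached 1 CPM in each library, of 4 endothelial markers 1, and of 5 fibroblast markers 4 in the control and 3 in the knockdown, among them COL1A1 at 41.5 and 32.5 CPM. The leukocyte marker was CD68, at 6.67 and 9.95 CPM, and the endothelial marker was VWF, at 3.75 and 3.40 CPM. Of the fibroblast markers PDGFRB had 2.43 and 1.89 CPM and COL1A2 had 1.46 and 1.23 CPM. PTPRC, the defining leukocyte gene, had 5 reads and 1 read, and DCN, a fibroblast proteoglycan, had 0 in both.

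**Figure D1:**
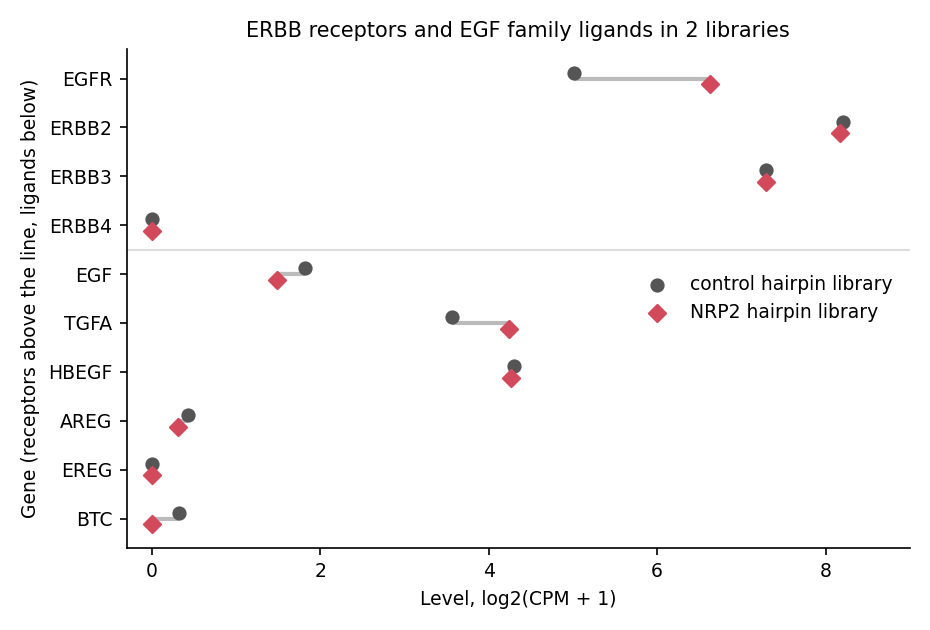
Level of each receptor and ligand, as log2(CPM + 1), in the control hairpin library (circles) and the NRP2 hairpin library (diamonds), with a grey line joining the 2 values of a gene. EGFR lies at 31.3 and 97.8 CPM, ERBB2, ERBB3 and HBEGF have nearly the same value in both libraries, and ERBB4 and EREG lie at 0.

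EGFR was the member that differed most between the libraries, and TGFA, one of its ligands, was also higher in the knockdown library. ERBB2, ERBB3 and HBEGF were level. ERBB4, AREG, EREG and BTC had 7 reads or fewer in each library. A gene was compared when its mean over both libraries was at least 1 CPM, and it was counted as higher or lower past 1.5-fold on the log2(CPM + 1) scale, which understates the change of low genes. Of the 10 members 6 were compared, 3 receptors and 3 ligands. Of these, 2 were higher, beside 5.78% of all 13316 compared genes, and 0 were lower, beside 3.57% of all genes. The 769 higher and 476 lower genes behind these shares became 587 and 646 at equal library totals, where EGFR and TGFA were still the 2 higher members. The median log2 change of the 6 was -0.01, and that of all compared genes was 0.03.

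EGFR, the receptor that binds EGF and TGFA, was at 31.3 CPM in the control library (642 reads) and at 97.8 CPM in the knockdown library (2073 reads). The ratio was 3.13-fold higher in the knockdown, with a 95% counting interval from 2.86 to 3.42. On the log2(CPM + 1) scale the change was 1.61 (1.49 to 1.74), the 37th highest of the 13316 genes, and 0.368% of genes had a larger change in either direction. Such intervals reflect counting error alone, because PCR copies of a molecule are not told apart and there was no second library per group. The antisense gene EGFR-AS1 overlaps EGFR, and whether counting used strand is not stated, so their reads cannot be told apart. EGFR-AS1 had 1 control read and 0 knockdown reads, and the change of EGFR and EGFR-AS1 summed was 1.61. The summed level of the fibroblast markers was 46.4 CPM in control and 36.6 CPM in knockdown cells, of which COL1A1 gave 41.5 and 32.5 CPM. That of the epithelial markers was 1667 and 2290 CPM, and that of the prostate markers 1888 and 1881 CPM. The leukocyte markers summed to 7.11 and 10.1 CPM and the endothelial markers to 4.09 and 3.87 CPM. Within the prostate list KLK3 had 5.60 and 41.0 CPM and FOXA1 453 and 302 CPM. Their part in the result was not tested.

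ERBB2, the partner receptor without a ligand, was at 293 CPM (6027 reads) in control and 286 CPM (6074 reads) in knockdown cells. The ratio of knockdown to control was 0.976 (0.942 to 1.01), and 89.7% of compared genes differed more. ERBB3, the neuregulin receptor with a weak kinase, was at 155 and 156 CPM (3188 and 3313 reads), a ratio of 1.01 (0.959 to 1.06), and 97.0% of genes differed more. These intervals leave out the choice of scaling. At equal library totals the log2 changes of ERBB2 and ERBB3 were -0.12 and -0.07, against -0.03 and 0.01 as deposited, so the direction for ERBB3 depends on scaling. ERBB4, the other neuregulin receptor, had 0 reads in both, which allows up to 0.146 CPM in control and 0.141 CPM in knockdown cells.

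**Figure D2:**
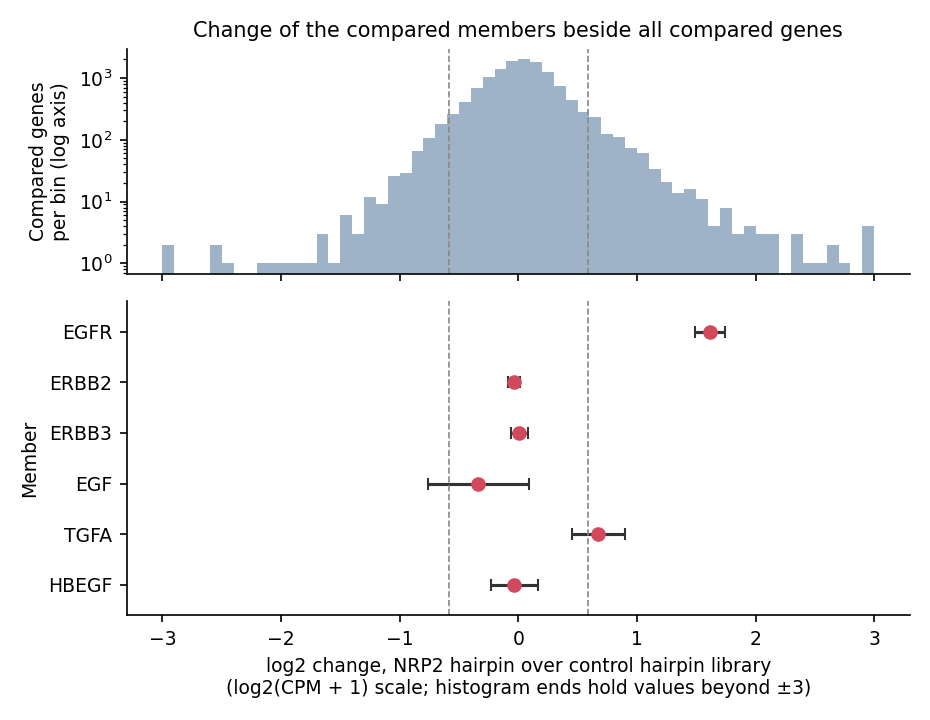
Top, the number of compared genes per bin of log2 change (NRP2 hairpin over control hairpin, log2(CPM + 1) scale, logarithmic vertical axis). Bottom, the change of the 6 compared members with 95% counting intervals, and dashed lines at 1.5-fold. EGFR at 1.61 lies in the thin upper tail, the interval of TGFA spans the line, and ERBB2, ERBB3 and HBEGF lie at the centre of the distribution.

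Levels of different receptors were set side by side only per length, as CPM per kb of the longest coding sequence in the GENCODE 29 annotation. ERBB2 had 77.9 CPM per kb in control and 76.1 in knockdown cells, ERBB3 had 38.6 and 38.8, and EGFR had 8.61 and 26.9. The order ERBB2, ERBB3, EGFR was therefore the same in both libraries. The distance to EGFR was smaller in the knockdown, where the level of ERBB2 was 2.82 times that of EGFR, against 9.05 times in the control. EGFR made up 6.88% of the summed receptor level in control and 19.0% in knockdown cells, while the share of ERBB2 was 62.3% and 53.6% and that of ERBB3 30.8% and 27.4%. The summed receptor level was 125 and 142 CPM per kb, a ratio of 1.13. The length used matters for these shares. With the full length of the same transcripts, 9821 bases for EGFR, its share was 3.39% and 10.0%, and the level of ERBB2 was 20.3 and 6.33 times that of EGFR.

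**Figure D3:**
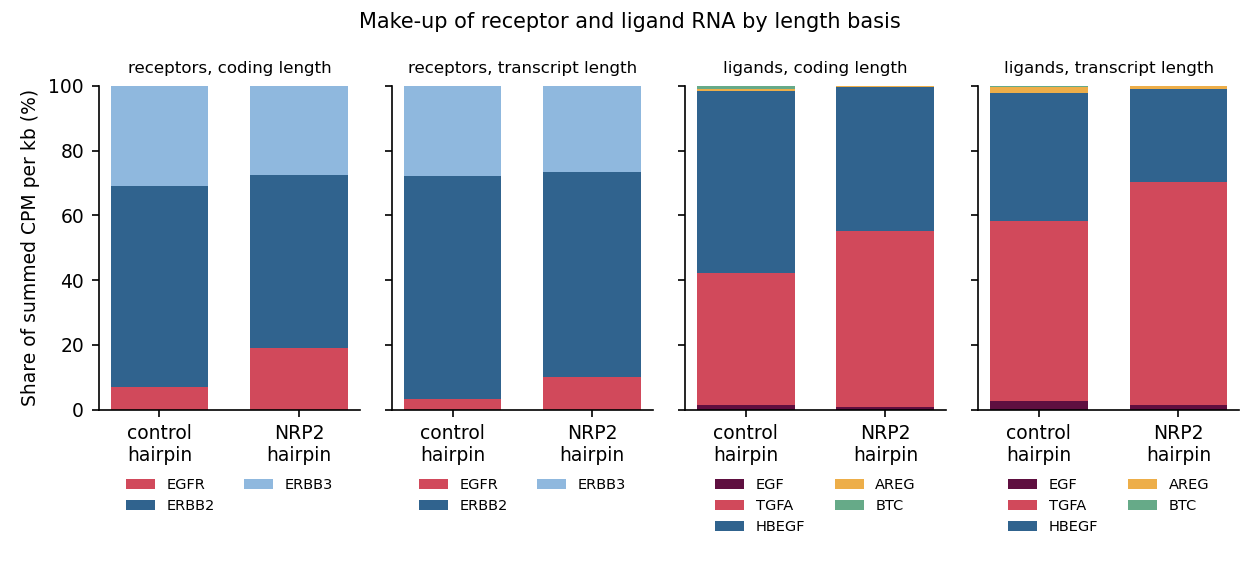
Share of each receptor (left pair of panels) and each ligand (right pair) in the summed CPM per kb, in percent, in the control hairpin and NRP2 hairpin libraries, by coding length and by full transcript length. The EGFR and TGFA segments are larger in the NRP2 hairpin library on both bases, and ERBB4 and EREG, at 0 reads, are not drawn. The transcript length used for TGFA was 985 bases.

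Among the ligands, TGFA and HBEGF carried most reads. TGFA, transforming growth factor alpha and a ligand of EGFR, was at 10.9 CPM (223 reads) in control and 17.9 CPM (380 reads) in knockdown cells. It was 1.65-fold higher in the knockdown (1.40 to 1.96), a log2 change of 0.67 (0.45 to 0.90), rank 556 from the highest. The interval includes the 1.5-fold threshold, so TGFA lay near the edge of the rule, and with a pseudocount of 5 CPM its change was 0.53 and it was no longer counted. HBEGF, the heparin-binding ligand, was at 18.6 and 18.2 CPM (383 and 386 reads), a ratio of 0.976 (0.845 to 1.13). EGF, the founding ligand of the family, was at 2.53 and 1.79 CPM (52 and 38 reads). Its ratio was 0.708 with an interval from 0.453 to 1.10, so a difference was not detectable at this depth.

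The remaining ligands were barely detected. AREG, amphiregulin, had 7 control reads and 5 knockdown reads, 0.341 and 0.236 CPM, a ratio of 0.692 (0.173 to 2.53). Older annotations hold a near-identical copy, AREGB, a name that RefSeq now gives to AREG itself. AREGB has no value of its own here, and how reads shared with it were counted is not stated. BTC, betacellulin, had 5 control reads (0.243 CPM) and 0 knockdown reads, and a count of 0 allows up to 0.141 CPM. Its log2 change of -0.31 had a counting interval from -0.31 to 0.01, so a difference was not detectable at this depth. EREG, epiregulin, had 0 reads in both. In the RefSeq gene order EREG, AREG and BTC are consecutive protein-coding genes that follow EPGN, which encodes the related ligand epigen. The 4 genes together had 12 control reads and 5 knockdown reads.

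Per kb of coding sequence HBEGF was at 29.9 and 29.2 CPM and TGFA at 21.8 and 36.0 CPM. HBEGF was thus the higher of the pair in the control and TGFA in the knockdown. The full length of the same transcripts was 985 bases for TGFA and 2386 bases for HBEGF. On these lengths TGFA was the higher in both libraries, with HBEGF at 0.709 of its level in control and 0.419 in knockdown cells. The order of the pair thus depends on the length used, and other transcripts of these genes were not tried. The share of TGFA in the summed ligand level was 40.9% in control and 54.6% in knockdown cells by coding length.

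The neuregulins, ligands of ERBB4 and in some cases of ERBB3, are EGF family members outside the 10 genes. NRG2 was at 2.09 CPM (43 reads) in control and 5.24 CPM (111 reads) in knockdown cells, 2.50-fold higher (1.74 to 3.64). NRG4 had 4 and 17 reads, a ratio of 4.12 (1.34 to 16.8), and NRG3 had 1 and 6, a ratio of 5.81 (0.705 to 267). Both lay below the mean needed for comparison and are named here after their values were seen. NRG1 and EPGN had 0 reads in both libraries. NRG2, NRG3 and NRG4 thus all had more reads in the knockdown library, and for NRG3 the counting interval includes no difference.

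Few other genes of the pathway passed 1.5-fold. Over 106 genes in 8 lists 94 were compared, of which 4 were higher and 1 lower (4.26% and 1.06%, beside 5.78% and 3.57% of all genes). These shares lie near the background and are no result about the pathway. Their median log2 change was 0.03, as for all compared genes. Smaller differences beyond counting error were common in both sets. An exact conditional binomial test on reads, which compares these libraries and not the conditions, called 51 of the 94 (54.3%), beside 52.2% of all compared genes. The 4 higher genes were NRG2, the adaptor SHC4, the receptor phosphatase PTPRJ and SPRED3, a relative of the Sprouty inhibitors of ERK signalling. The lower gene was PIK3R3, a regulatory subunit of PI3K. With a pseudocount of 5 CPM, NRG2 and SPRED3 were no longer counted.

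Of 9 genes for ligand shedding 0 passed 1.5-fold in either direction, with a median of 0.06. ADAM10, the protease that releases EGF and BTC, was at 179 CPM in both libraries, and the related proteases had 113 and 134 CPM (ADAM9) and 393 and 408 CPM (ADAM15). Of 16 genes for receptor brakes and turnover 1 was higher and 0 lower, with a median of -0.06. PTPRJ, a phosphatase that acts on EGFR, had 24.3 CPM in control and 39.5 CPM in knockdown cells, 1.62-fold higher (1.45 to 1.81). RNF41, a ubiquitin ligase for ERBB3, was at 106 and 115 CPM, the phosphatase PTPN1 at 90.5 and 84.0 CPM and the endocytic adaptor EPS15 at 77.0 and 84.7 CPM.

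Of 21 adaptors 1 was higher and 0 lower, with a median of -0.12. SHC4 had 5.94 and 12.3 CPM, 2.06-fold higher (1.66 to 2.58). The adaptors with the most reads were GRB10, at 1122 and 854 CPM with a ratio of 0.761 (0.747 to 0.776), the phosphatase PTPN11, at 277 and 266 CPM, and GRB2, which links receptors to RAS, at 190 and 225 CPM. Of 12 genes of the RAS-RAF-MEK-ERK cascade 0 passed 1.5-fold, with a median of 0.14. The kinase MAP2K2 was at 134 and 160 CPM, and NF1, which turns RAS off, was at 140 and 182 CPM, 1.30-fold higher (1.24 to 1.37).

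Of 13 PI3K-AKT genes 0 were higher and 1 lower, with a median of -0.08. PIK3R3 was at 192 and 124 CPM, a ratio of 0.644 (0.613 to 0.677), while the kinase AKT1 had 289 and 297 CPM and its relative AKT2 had 154 CPM in both libraries. Of 7 STAT, JAK and SRC genes 0 passed 1.5-fold, with a median of 0.05. STAT3 was at 205 and 212 CPM and the kinase SRC at 75.3 and 79.4 CPM.

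A list of genes taken as outputs of ERK signalling was compared last. Of 20 listed 15 had a mean of at least 1 CPM, 1 was higher and 0 lower, and their median log2 change was 0.07. SPRED3 was at 1.31 and 2.55 CPM (27 and 54 reads), 1.94-fold higher (1.199 to 3.20), and its relative SPRED1 was at 22.9 and 30.4 CPM. The cell cycle regulator CCND1 was at 376 and 456 CPM and the transcription factor MYC at 252 and 239 CPM. RNA levels of these genes do not measure receptor or kinase activity.

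**Figure D4:**
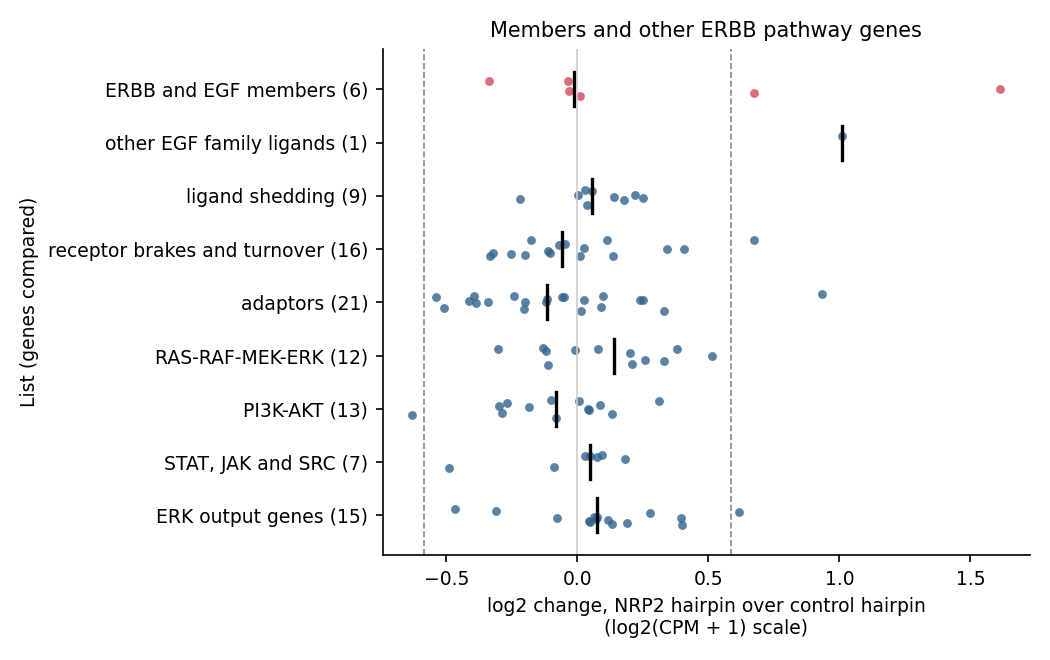
Log2 change (NRP2 hairpin over control hairpin, log2(CPM + 1) scale) of each compared gene in the 10-gene family (top row) and in 8 lists of other pathway genes, with black bars at list medians and dashed lines at 1.5-fold. Most points lie between the lines, and EGFR at 1.61 is the point farthest to the right.

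The genes whose levels were closest to those of EGFR were taken as the 5 with the smallest distance over log2(CPM + 1) in the 2 libraries. The distance ranks likeness of level and not of change, and it describes 2 values per gene and no more. The 5 genes were PFKFB4 (25.2 and 92.3 CPM, distance 0.31), SCARF2 (42.2 and 88.1 CPM, distance 0.45), S1PR3 (distance 0.47), SLC16A3 (distance 0.49) and KLK4 (46.4 and 97.8 CPM, distance 0.56). Their log2 changes ran from 1.05 (SCARF2) to 2.31 (SLC16A3), against 1.61 for EGFR.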

How the data were processed

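The deposited tables hold 1 value per gene symbol, a signal that the authors made by TMM scaling of read counts (CPM), per the labels. The submitters' processing notes name bcl2fastq 2.17, RSEM 1.2.15, Bowtie2 2.1.0 and edgeR, and build hg19. What each did, the annotation and the use of strand were not stated. The columns sum to 1024943 and 1084413, more than plain CPM without TMM scaling allows, and values were used as deposited. In both libraries 100% of values were whole multiples of 1 read's value, within 0.01 read, so reads were recovered. Left out were 28 symbols turned into dates (0.181% and 0.184% of reads).

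Changes are log2((knockdown CPM + 1)/(control CPM + 1)), and genes were compared where the mean reached 1 CPM. Ratios carry exact conditional binomial (Clopper-Pearson) 95% intervals. Every member was named, as were pathway genes past 1.5-fold, up to 3 of the highest mean per list, and the 5 genes nearest to EGFR. Some genes that this rule names are not reported here. The members and lists were chosen with earlier results of these data known. Lengths come from GENCODE 29 (GRCh38), by symbol, from the transcript with the longest coding sequence of each gene. Calculations used Python 3.11.15, numpy 2.4.6, pandas 2.3.3 and scipy 1.17.1 and were tested on simulated data.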

Additional observations from a re-analysis of the deposited data

How the results depend on the processing

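EGFR stayed between 1.503 and 1.64 and TGFA between 0.53 and 0.71 on the log2 scale over pseudocounts of 0.25 and 5 CPM, equal library totals, a median ratio of 0 and quantile normalization, and EGFR also with EGFR-AS1 added. ERBB3 turned to -0.07 at equal totals, -0.02 at a median ratio of 0 and -0.05 under quantile normalization, each from 0.01. The 2 higher members became 1 (EGFR) with a pseudocount of 5 CPM or a 2-fold threshold, and were 3 of 7 with EPGN and the neuregulins, an alternative chosen after seeing the data. None of the alternatives run counted a compared member as lower, with EGF between -0.45 and -0.15. BTC, which was too low to be compared, ranged from -0.98 with a pseudocount of 0.25 CPM, past 1.5-fold, to -0.07 with 5 CPM.

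Counts over all genes, higher and lower, were 329 and 159 with a pseudocount of 5 CPM, 465 and 310 with a filter at a mean of 5 CPM, 194 and 70 at 2-fold, against 769 and 476. By plain ratio 732 were lower. Equal totals gave 587 and 646, so the higher share of calls was 47.6% in place of 61.8%. Pathway genes, 4 higher and 1 lower, became 2 higher with a pseudocount of 5 CPM or a filter at 5 CPM, 1 and 0 at 2-fold, and 2 lower with a pseudocount of 0.25 CPM and 3 lower by plain ratio. An exact conditional binomial test on reads, which compares these libraries and not the conditions, called 4024 genes higher and 2921 lower (52.2% of 13316), 25 and 26 pathway genes, and of the members EGFR and TGFA.

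With transcript in place of coding length the shares were 3.39% and 10.0% for EGFR, 68.7% and 63.4% for ERBB2, and 27.9% in the control for ERBB3. No paired analysis was possible because each group holds 1 library, which also leaves no replicate to leave out. Depth limits EGF, AREG and BTC, whose counting intervals are wide.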

Other observations

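The protein-coding genes that flank the EPGN, EREG, AREG and BTC cluster, picked by position and outside the naming rule, had few reads, apart from RCHY1. MTHFD2L, a mitochondrial folate enzyme next to EPGN, had 47 control reads and 16 knockdown reads, 2.29 and 0.755 CPM. It reached the level set for a comparison and lay past 1.5-fold lower. PARM1, a mucin-like protein next to BTC, had 18 and 5 reads. CXCL2, a chemokine beyond MTHFD2L, had 7 and 4, and RCHY1, a ubiquitin ligase beyond PARM1, was at 34.2 and 32.0 CPM.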
